A study of Saccharomyces cerevisiae with 4 samples.

Results

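The genes described here encode transporters that bring nutrients into budding yeast or move them across the vacuolar membrane, together with the proton pump of the plasma membrane. They were chosen by systematic name: VHT1 (YGR065C), HOL1 (YNR055C), CAN1 (YEL063C), GAP1 (YKR039W), HXT7 (YDR342C), HXT6 (YDR343C), AVT3 (YKL146W), AVT6 (YER119C) and PMA1 (YGL008C). Of these 9 genes, 8 had listed sites, and these 19 sites were part of 1892 in all. PMA1 had 0 sites among the rows analysed here. The genes were picked with the mutated fractions and site numbers of this same table known, so their levels and their difference between treated and input RNA are given as a description.

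Nutrient transporters of yeast are membrane proteins of several families. Permeases and symporters of the plasma membrane draw on the proton gradient that the ATPase Pma1 builds up, while hexose transporters let glucose enter by facilitated diffusion. The vacuole stores amino acids, and transporters of its membrane release them to the cytosol. These proteins are made on the endoplasmic reticulum from their messenger RNAs, and many of their genes respond to the nutrients in the medium.

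The study mapped 5-formylcytidine (f5C), an oxidised form of 5-methylcytidine, in poly(A)+ RNA of Saccharomyces cerevisiae. The treated group held 2 libraries of fragmented mRNA kept with 0.9 M pyridine borane for 24 h at 37 °C and pH 5.2, and the input group held 2 libraries of mRNA without this reagent. All 4 libraries came from cells grown overnight from a single clone in rich glucose medium (YPD) at 28 °C, and strain and genotype are not stated in the labels. Pyridine borane reduces f5C to dihydrouridine, which is copied as U, so that a modified position appears as a mismatch in treated RNA, although the table gives mutated reads without naming the base. Nothing says whether replicates 1 and 2 were separate cultures, so the spread between them may be technical.

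At the 19 transporter sites, coverage ranged from 92 to 581 reads in treated replicate 1 and from 64 to 412 in treated replicate 2, against 100 to 513 reads in input replicate 1 and 59 to 361 in input replicate 2. Median coverage of these sites was 409 and 274 reads in the treated libraries, where the medians over all listed sites were 469 and 327.5. The ratio of treated to input coverage in replicate 1 had a median of 1.18 over the transporter sites, against 1.14 over all sites, and in replicate 2 the medians were 1.004 and 0.973. The transporter sites thus had a lower median depth than all listed sites in both treated libraries, and VHT1 was the shallowest of them. In this text a level is the percentage of mutated reads, averaged over the 2 treated replicates, and intervals are Wilson 95% intervals on the reads of both replicates summed. They cover counting error only.

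All 19 sites had more mutated reads in treated than in input RNA in both replicates, and every treated value, 7.5% or more, lay above both input values of its site. By Fisher exact test with Benjamini-Hochberg adjustment over all sites, 19 of 19 passed, with a largest adjusted p of 4.05e-13. So did 100% of the whole table, because the authors listed only positions that rose after treatment, and nothing about transporters can be read from this count. Over the levels of all 19 sites the median was 9.70% (quartiles 9.03% and 10.2%), against 9.002% over all 1892 sites (quartiles 8.35% and 10.1%). Shallow sites needed a higher percentage to be listed, and the 19 sites had the lower median coverage. Among the 19 this minimum was highest at VHT1 and GAP1, 15.6% and 9.93% in treated replicate 2. Without VHT1, left out after seeing the data, the median level was 9.58%. The medians were not compared at equal depth, and whether depth bears on their difference was not tested. A level of at least 10% was found at 5 of the 19 sites, and at 27.5% of all sites. Of the 19, 1 had a level of at least 20%, against 1.06% of all sites.

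**Figure D1:**
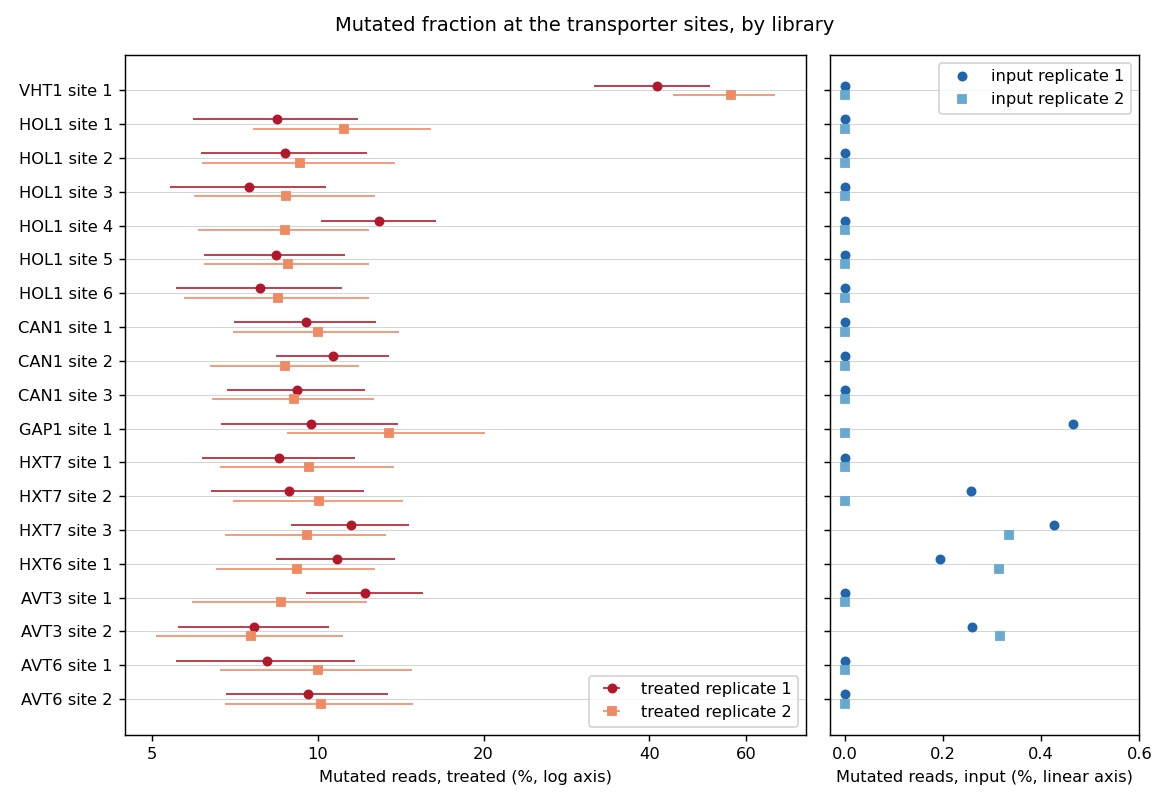
Mutated reads at each of the 19 transporter sites in the 2 treated libraries (left, percent on a log axis, bars are Wilson 95% intervals per library) and in the 2 input libraries (right, percent on a linear axis), with sites numbered from the 5′ end of the transcript. VHT1 stands at 41.3% and 56.3%, and every other site lies between 7.5% and 13.5% in the treated libraries, while no input value exceeds 0.465%.

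VHT1 encodes the proton symporter that takes up biotin, a vitamin that laboratory yeast cannot make in full. Its single site, on chromosome VII at position 619806 of the minus strand, had 38 mutated of 92 reads (41.3%) in treated replicate 1 and 36 of 64 (56.3%) in treated replicate 2, against 0 of 100 and 0 of 59 reads in the input libraries. Both treated libraries were high, and neither input library held a mutated read, so that over both a share of up to 1.89% remains possible. The level was 48.8% ± 10.6 (SD, n = 2), the third highest of the 1892 sites, and with reads summed the interval was 39.8% to 55.2%. The replicates lay 14.9 percentage points apart, and by two-sided Fisher exact test on their reads this distance did not pass (p = 0.0746, unadjusted; adjusted p = 1).

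The VHT1 site was also one of the least covered: 8 of all listed sites had fewer treated reads. At this depth the filters that the whole table obeys require at least 12 mutated reads (13.0%) in treated replicate 1 and 10 (15.6%) in treated replicate 2. A site with a level near 9% could therefore not have been listed here, whereas VHT1 exceeded the required number by 26 reads in each replicate. Of 46 other sites with 50% to 150% of its treated coverage, a range chosen after seeing the data, the median level was 14.3%, and 1 site had a higher level than VHT1.

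**Figure D2:**
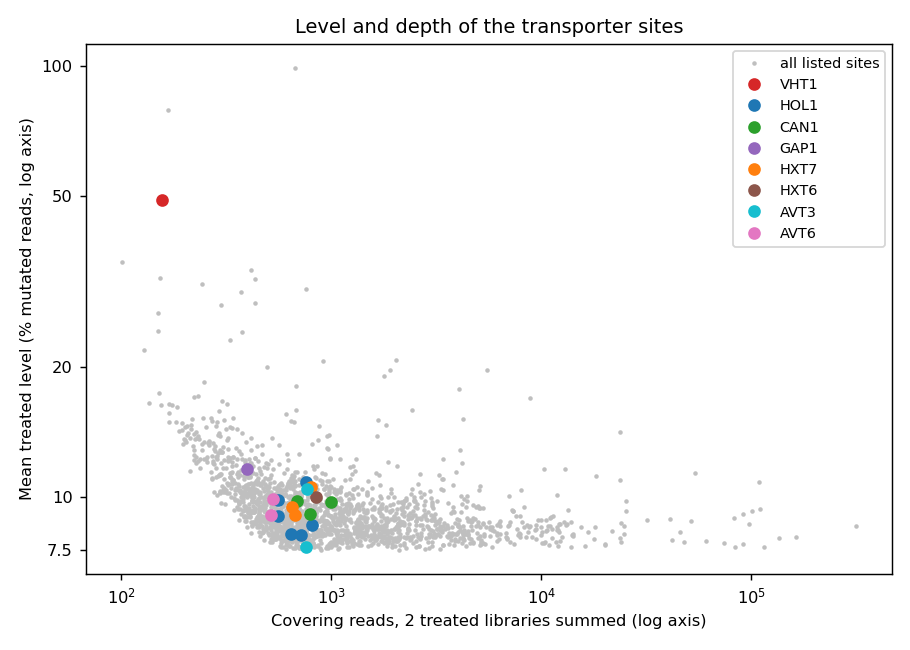
Mean treated level (percent mutated reads, log axis) against covering reads summed over the 2 treated libraries (log axis), with the 19 transporter sites in colour and all 1892 sites in grey. VHT1 lies at 156 reads and 48.8%, apart from the other 18 transporter sites, which lie between 398 and 993 reads and between 7.62% and 11.6%.

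HOL1 had the most sites of the group. It encodes a plasma membrane carrier of the major facilitator family, first known from mutants that take up histidinol, and it is known to import polyamines. Its 6 sites lay on the minus strand of chromosome XIV within 638 nt, and from the 5′ end of the transcript their positions were 729660, 729601, 729458, 729342, 729326 and 729022. Of 1253 genes with a site, 5 had 6 or more. In treated replicate 1, 8.43%, 8.73%, 7.5%, 12.9%, 8.39% and 7.86% of reads were mutated at these positions in that order, and in treated replicate 2 the percentages were 11.2%, 9.29%, 8.76%, 8.71%, 8.84% and 8.49%. In the input libraries all 6 positions had 0 mutated reads, over 3713 covering reads in all.

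The 6 HOL1 levels ranged from 8.13% ± 0.890 at position 729458 to 10.8% ± 2.996 at position 729342 (SD, n = 2 each), with a median of 8.81%. Their order was not the same in both replicates: position 729342 was the highest in replicate 1, while position 729660 was the highest in replicate 2. The intervals on summed reads, 6.21% to 10.2% for the lowest and 9.16% to 13.7% for the highest, overlapped. At position 729458, 33 of 440 reads in treated replicate 1 gave exactly 7.5%, the smallest value that the table holds in that library, which 4 sites share. Positions 729342 and 729326 were 16 nt apart and their reads may be partly the same, yet their values in treated replicate 1, 58 of 448 and 40 of 477 reads, were 12.9% and 8.39%. In treated replicate 2 the same positions had 27 of 310 and 29 of 328 reads.

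Set against each other, the VHT1 level was 5.53 times the median HOL1 level, and 4.91 and 6.39 times in replicates 1 and 2. The VHT1 interval began at 39.8%, above the highest upper bound of the other 18 sites, 14.5% at GAP1. Since these sites were chosen for this contrast, no test is given.

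**Figure D3:**
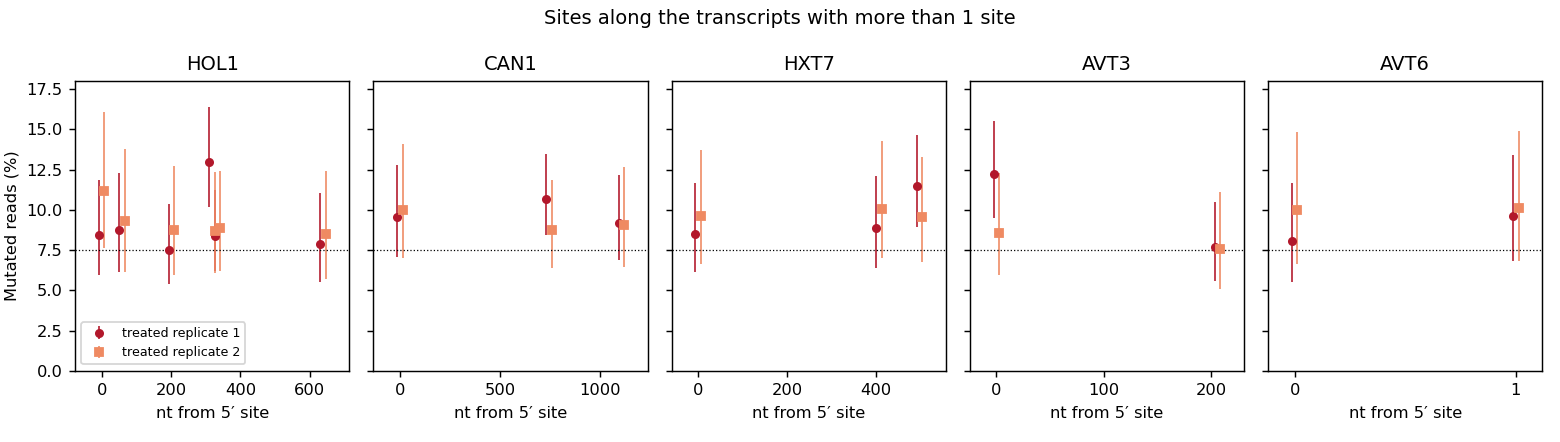
Percent of mutated reads in the 2 treated libraries along the 5 transcripts with more than 1 site, by distance in nt from the site nearest the 5′ end, with Wilson 95% intervals per library and a dotted line at the 7.5% minimum of the table. HOL1 holds 6 sites over 638 nt, CAN1 3 over 1105 nt, HXT7 3 over 499 nt, AVT3 2 at 206 nt and AVT6 2 at 1 nt, and the intervals of both libraries overlap at each of these sites.

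The amino acid permeases of the plasma membrane were represented by CAN1, the arginine permease whose loss gives resistance to the toxic analogue canavanine, and GAP1, the general amino acid permease, a broad-range carrier that cells use on poor nitrogen sources. CAN1 had 3 sites on the minus strand of chromosome V, from the 5′ end at positions 32927, 32182 and 31822. Mutated reads there were 39 of 409, 62 of 581 and 42 of 458 in treated replicate 1 (9.54%, 10.7% and 9.17%). In treated replicate 2 they were 28 of 280, 36 of 412 and 30 of 331 (10%, 8.74% and 9.06%). The CAN1 input libraries held 0 mutated reads at all 3 positions, over 2107 covering reads. The 3 levels, 9.77% ± 0.328, 9.70% ± 1.37 and 9.12% ± 0.0756 (SD, n = 2 each), lay within 0.651 points of each other, and the outer sites were 1105 nt apart. Over all listed sites the quartiles of the level were 8.35% and 10.1%, so levels close to each other are common in the table.

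GAP1 had a single site on chromosome XI, position 515140, plus strand, with 25 of 257 mutated reads (9.73%) in treated replicate 1 and 19 of 141 (13.5%) in treated replicate 2, against 1 of 215 (0.465%) and 0 of 186 in the input libraries. This level, 11.6% ± 2.65 (SD, n = 2), was the highest of the group after VHT1, and GAP1 was also the next shallowest. Its interval, 8.34% to 14.5%, overlapped those of the CAN1 sites. In treated replicate 2 at least 14 mutated reads (9.93%) were needed for listing at this depth, so the site was 5 reads above the minimum there.

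HXT7 and HXT6 encode high-affinity glucose transporters of nearly the same protein sequence and are neighbouring genes on chromosome IV. Reads of the pair can belong to either gene, and the rule by which the authors assigned them is not stated in the labels or the table header. HXT7 had 3 sites on the minus strand, from the 5′ end at positions 1155832, 1155424 and 1155333. They had 34 of 399, 34 of 384 and 56 of 487 mutated reads in treated replicate 1 (8.52%, 8.85% and 11.5%). In treated replicate 2 they had 26 of 270, 27 of 268 and 30 of 314 (9.63%, 10.1% and 9.55%). Input replicate 1 had 0, 1 and 2 mutated reads at these positions, and input replicate 2 had 0, 0 and 1.

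The HXT6 site, at position 1160725 on the minus strand, had 55 of 508 mutated reads (10.8%) in treated replicate 1 and 31 of 338 (9.17%) in treated replicate 2, against 1 of 513 (0.195%) and 1 of 318 (0.314%) in the input libraries. Its level, 9.999% ± 1.17, lay between those of the HXT7 sites at positions 1155333 and 1155424, 10.5% ± 1.38 and 9.46% ± 0.863 (SD, n = 2 each), and differed from both by less than these SDs. The HXT6 site and the HXT7 site at position 1155333 were higher in replicate 1, and both were among the few sites here with mutated reads in each input library. Across the group, mutated reads in both input libraries were seen at 3 sites, the third being in AVT3. Sites without any input mutation numbered 14 of 19, against 64.1% of all listed sites. This share depends on depth, which was not matched. Median input coverage was 369 and 295 reads at the 19 sites, against 417.5 and 338 over all sites. Over the 19 sites the input libraries had 6 of 6560 (0.0915%) and 3 of 5153 (0.0582%) mutated reads, where all listed sites had 0.0473% and 0.0444%. Of these 9 reads, 6 lay in HXT6 and HXT7, 2 in AVT3 and 1 in GAP1, so that VHT1, HOL1, CAN1 and AVT6 had none.

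The vacuolar transporters AVT3 and AVT6 belong to a family that moves amino acids across the vacuolar membrane. Avt3 exports neutral amino acids and Avt6 acidic ones from the vacuole. AVT3 had 2 sites 206 nt apart on the plus strand of chromosome XI. At position 172880, nearer the 5′ end, 56 of 459 reads (12.2%) were mutated in treated replicate 1 and 26 of 303 (8.58%) in treated replicate 2, against 0 of 389 and 0 of 341 in the input libraries. At position 173086 the counts were 35 of 456 (7.68%) and 23 of 304 (7.57%) in the treated libraries, against 1 of 387 (0.258%) and 1 of 317 (0.315%) in the input libraries.

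The AVT3 site at position 173086 was the lowest of the group, with a level of 7.62% ± 0.0775 (SD, n = 2) and an interval of 5.95% to 9.74%. Its treated minus input difference, 7.33 ± 0.118 points, was the smallest of all 1892 sites. In both treated libraries it had exactly the smallest number of mutated reads with which a site of its coverage could be listed, 35 and 23, and 60 of all sites shared this. The other AVT3 site had a level of 10.4% ± 2.56, and it was higher than its neighbour in both replicates, by a larger margin in replicate 1. Against the lowest AVT3 site the VHT1 level was 6.40 times as high, 5.38 times in replicate 1 and 7.43 times in replicate 2.

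AVT6 had 2 sites at adjacent positions, 400779 and 400778, on the minus strand of chromosome V. The first had 25 of 309 mutated reads (8.09%) and 21 of 210 (10%) in treated replicates 1 and 2, and the second had 30 of 312 (9.62%) and 22 of 217 (10.1%). Both had 0 mutated reads in the input libraries, at 282 and 285 reads in replicate 1 and 204 and 205 in replicate 2. The coverage of both positions differed by at most 7 reads in any library, as for positions that the same fragments cover, and whether the same molecules were mutated at both cannot be seen in this table. Of 636 pairs of neighbouring sites in the same gene over the whole table, 10 were 1 nt apart. Among the 11 such pairs in the transporter genes the median gap was 143 nt, against 311 nt over all 636 pairs. HOL1 held 5 of the 11, and over the 6 pairs without it, a count made after seeing the data, the median was 283 nt.

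The test between the treated replicates passed at none of the 19 sites. Every listed site reached the minimum percentage of the table in both treated libraries, so sites low in either library are absent. The count therefore cannot show how well the replicates agree. By two-sided Fisher exact test between treated replicates 0 of 19 passed an unadjusted p of 0.05, against 2.75% of all sites, and 0 passed after Benjamini-Hochberg adjustment, as did 0% of all sites. The smallest unadjusted values were p = 0.0746 (Fisher exact test) at VHT1 and p = 0.0790 (Fisher exact test) at HOL1 position 729342. The median absolute distance between replicates was 1.26 points over the 19 sites and 0.870 over all sites. Replicate 2 was the higher one at 12 of 19 transporter sites, and at 58.2% of all sites. By gene, it was higher at 5 of 6 sites in HOL1, 1 of 3 in CAN1, 2 of 3 in HXT7, 2 of 2 in AVT6 and 0 of 2 in AVT3. At the single sites it was higher in VHT1 and GAP1 and lower in HXT6. Sites of the same gene come from the same 2 treated libraries and are not replicates.

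**Figure D4:**
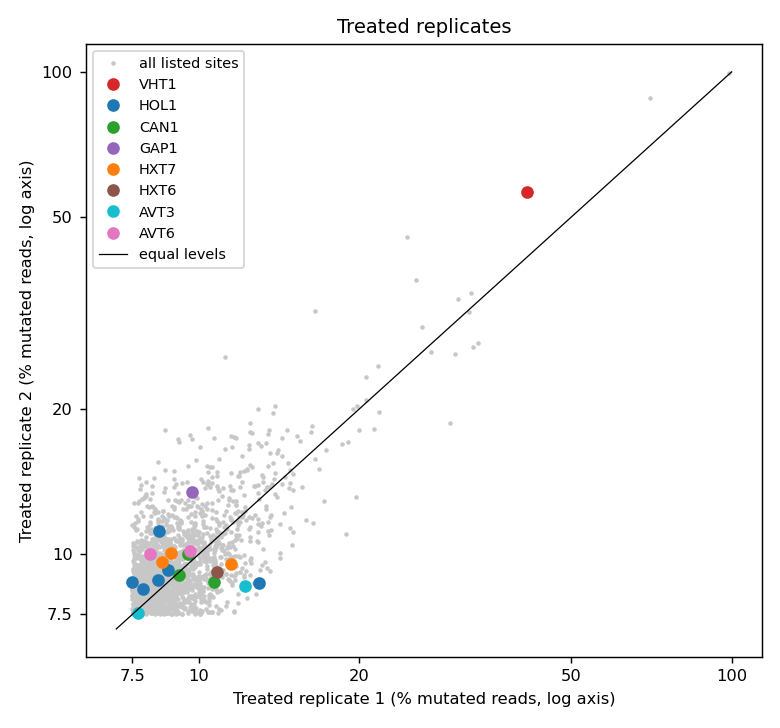
Percent of mutated reads in treated replicate 2 against treated replicate 1 (both on log axes), with the 19 transporter sites in colour, all 1892 sites in grey and a line of equal values. VHT1 is above 40% in both libraries, and the other 18 transporter sites lie within 4.24 points of equality, 11 of them above the line.

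Other transporters and pumps were gathered in 5 lists. The lists were chosen with earlier results of these data known, so their shares are given as a description. The 5 lists held 125 further genes, of which 42 (33.6%) had a site, against 20.8% of all nuclear protein-coding genes. The share was 2 of 22 in sugar and polyol transporters, 11 of 26 in amino acid, peptide and ammonium transporters, 12 of 37 in other plasma membrane transporters, 9 of 24 in vacuolar transporters and 8 of 16 in proton and sodium pumps. Whether a gene can have a listed site depends on its coverage, and the coverage of genes without a site was not used here. All 63 sites of these lists were higher in treated than in input RNA, as the whole table is, and their median level was 9.09%.

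The list of sugar and polyol transporters held 3 sites, in 2 of its 22 genes. In that list MAL11, an alpha-glucoside transporter, had the highest level, 10.4% ± 0.287 (SD, n = 2), and ITR2, an inositol transporter, had 2 sites at 8.50% and 8.26%. Among the amino acid carriers AGP2, a permease of the plasma membrane, had 2 sites, and one of them was the highest of its list at 12.2% ± 1.19 (SD, n = 2), with 88 of 772 and 70 of 535 treated reads mutated, against 0 of 632 and 0 of 526 in input. The other AGP2 site had a level of 9.59%.

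ADY2, an acetate transporter of the plasma membrane, held the highest site of the 5 lists. At chromosome III position 132342, minus strand, 219 of 1097 reads (19.96%) and 122 of 675 (18.1%) were mutated in the treated libraries, against 0 of 917 and 0 of 810 in input. Its level was 19.0% ± 1.34 (SD, n = 2), which is above those of the 18 transporter sites other than VHT1, and it was measured at greater depth than VHT1. The second ADY2 site had 8.21%. In the same list FET3, the oxidase of high-affinity iron uptake, had sites at 10.1% and 8.90%, the phosphate transporter gene PHO90 at 9.24% and 9.71%, the thiamine transporter gene THI7 at 8.42% and 10.1%, and the higher of the 2 sites of the polyamine exporter gene TPO1 at 11.0%.

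In the vacuolar list FET5, a homologue of FET3, had the highest level, 14.6% ± 4.01 (SD, n = 2), at 119 and 86 treated reads. At this depth a site needed at least 10.9% and 12.8% mutated reads in treated replicates 1 and 2 to be listed, and FET5 was 1 and 4 reads above these minimums, so its place in the list cannot be told apart from the effect of depth. SMF3, a metal transporter, had 3 sites at 8.19%, 11.3% and 10.4%, and VNX1, a cation exchanger, had 3 at 7.68%, 9.34% and 9.69%, the last 2 of which were adjacent as in AVT6. PMC1, the vacuolar calcium pump, had levels of 9.14% and 8.15%, and VBA1, a basic amino acid transporter, had 10.1% and 9.88%. Among the pumps, subunits of the vacuolar proton ATPase held all 16 sites, at a median of 8.48%. VMA1 had 4 sites between 8.17% and 10.6%, VMA5 had 3 between 8.26% and 10.7%, and VMA6, VMA8 and VPH1 had 2 each between 7.82% and 8.80%.

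**Figure D5:**
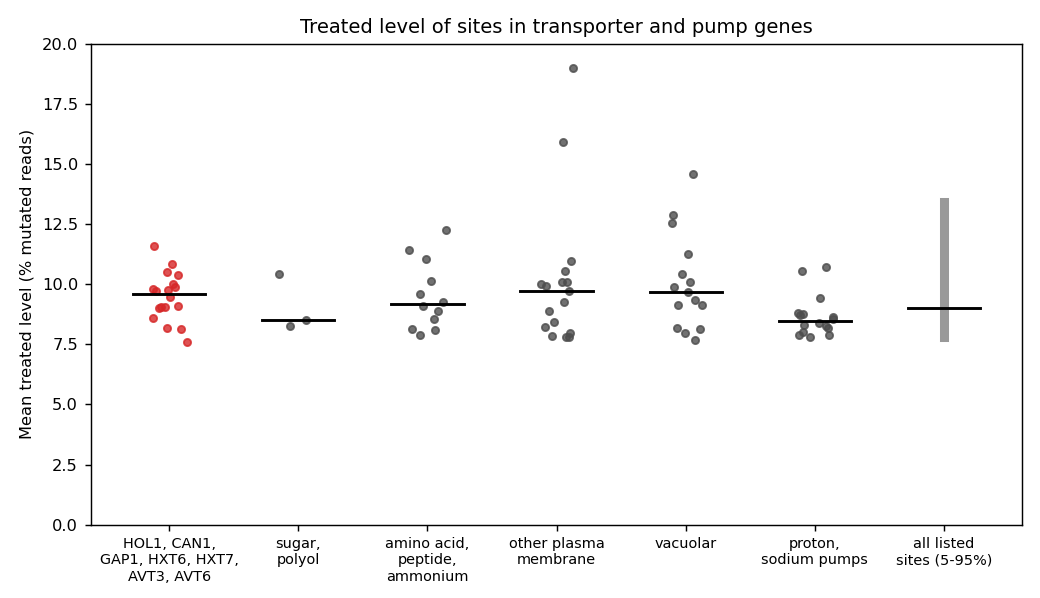
Mean treated level (percent mutated reads) of each site in the 7 named genes without VHT1 (red) and in 5 lists of other transporters and pumps (dark), with medians as bars, and the range from the 5th to the 95th percentile of all 1892 sites in grey. The medians lie between 8.48% and 9.71%, and the highest point, ADY2, lies at 19.0%.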

How the data were processed

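The deposited table holds 1892 positions with counts of covering and of mutated reads for 2 treated and 2 input libraries, per the file headers. The authors' fraction is mutated over covering reads. The deposited ratio is the treated over the input fraction, and p-values and q-values per replicate are the authors' own. The submitters' processing notes name cutadapt and STAR, and their versions, the genome build and the site caller are not stated in the labels or the table header. Every listed site had at least 7.5% and 10 mutated reads in both treated libraries, and no q-value exceeded 0.00993. The p-values solve to binomial rates of 1.83% and 1.81%, from which the smallest listable number of reads per site was computed. The total depth of each library is unknown.

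Groups and replicate numbers came from the titles. Sites were tested by two-sided Fisher exact test on counts summed per group, and between treated replicates, with Benjamini-Hochberg adjustment over all sites and a minimum of 10 reads. An interval limit for 0 mutated reads is 3 reads over the coverage. Gene names came from the RefSeq table of assembly R64, in which all 125 list genes matched. The genes and lists were chosen with earlier results of these data known. The text names all 9 genes and, per other list, genes with 2 or more sites and the gene with the highest level. The test was checked on simulated data. Alternatives covered coverage minimums, the replicate block, left-out replicates, summed reads, the HXT pair and the subtracted rate. Sequence context was not analysed here. Tools were scipy 1.17.1, pandas 2.3.3 and numpy 2.4.6 under Python 3.11.15.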

Additional observations from a re-analysis of the deposited data

How the results depend on the processing

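The 19 sites higher in treated RNA stayed 19 at coverage minimums of 20 and 50 reads, with no minimum and with either replicate left out, and were 15 without HXT6 and HXT7; the authors' selection fixes these counts. Labels number both groups alike, but nothing ties a number to a culture, and the correlation between the deviations of libraries with the same number was -0.00502 in coverage (1892 sites) and 0.0715 in mutated percentage (295 sites); with the replicate number as a block (Cochran-Mantel-Haenszel test) 19 sites passed. The count of 0 sites that differed between treated replicates was the same under minimums of 50 and 100 reads, with none and without the HXT pair. These settings could not change it, since the smallest unadjusted p of the 19 sites was 0.0746 (Fisher exact test). The authors' selection limits this count too, since every listed site reached the minimum percentage in both treated libraries. The median level, 9.70%, was 9.17% to 9.29% with a replicate left out, 9.48% from summed reads, 9.58% where each library had 100 reads or more, 9.61% with 1 value per gene and 9.58% without VHT1, the last chosen after seeing the data. The median difference, 9.70 points, was 9.17 to 9.22 with a replicate left out, 9.52 without VHT1 and 7.89 when the solved rates were subtracted in place of the input fractions, which are smaller. Both medians were the same without the HXT pair. Of 42 other transporter genes with a site, 26 had one in the upper 50% of sites by level. Such a threshold can only keep or lower the count, and the same share over all genes is not given here. Levels of all 19 single sites from summed reads lay within the replicate SD. Summed reads always give a value between those of both treated replicates, which cannot lie further from their mean than this SD. The outcome was therefore fixed beforehand, and it cannot show whether summing matters for the levels. At VHT1, 156 treated reads leave an interval of 39.8% to 55.2%. The alternative for sequence letters around the sites was not run, for want of a genome sequence in this work.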
